A study of Mus musculus with 12 samples.

Results

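The mammalian mitochondrial ribosomal protein genes, named Mrpl for the large and Mrps for the small subunit, were followed in invariant natural killer T (iNKT) cells, lymphocytes of the thymus whose semi-invariant antigen receptor binds lipids. Members were the protein-coding genes whose GENCODE M21 symbol begins with Mrpl or Mrps and a digit, a rule that uses no measured value. The pattern matched 83 genes. Of these, 78 were protein-coding and all 78 were among the 48672 gene IDs of the count files, while 5 were processed pseudogenes. The cells came from pools of 4 to 7 thymi, taken from untreated C57Bl/6J mice at 4 to 5 weeks of age. One genotype was wild type (WT), the other CDCre;Bcl6F/F, a Cre transgene with floxed Bcl6 alleles (labelled Bcl6KO); what drives the Cre is known here only by its name. Stage 0 (ST0) cells were sorted as tetramer+ TCRb+ CD24+ CD44- and stage 1 (ST1) cells as tetramer+ TCRb+ CD24- CD44-. Each of the 4 groups, WT ST0, WT ST1, Bcl6KO ST0 and Bcl6KO ST1, had 3 libraries.

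Mitochondrial ribosomes translate the few messenger RNAs of the mitochondrial genome, which encode core proteins of the respiratory chain. Their ribosomal RNAs are made inside the organelle, but every one of their proteins is encoded in the nucleus, translated in the cytosol and imported. Some of these proteins have homologues in bacterial ribosomes and others exist only in mitochondria. T cells depend on mitochondrial translation for respiratory capacity when they proliferate. BCL6 is a zinc finger repressor that is abundant in double-positive thymocytes, the precursors of iNKT cells, and the study asks how it acts early in the development of innate-like T cells.

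The members lay on 17 chromosomes, with 11 on chromosome 11 and 8 on chromosome 17. Of the 78, 33 shared at least 1 exonic base with another annotated gene and 25 shared over 5% of their exonic bases. The sources used here do not say whether the counting used strand, so reads of a member and of a gene on top of it cannot be told apart. The shared part ran up to 87.97% for Mrpl53, and among other members whose values are given below it was 69.8% of exonic bases for Mrps25, 30.5% for Mrps18b, 26.3% for Mrpl24, 24.2% for Mrps27, 23.2% for Mrps18c, 19.9% for Mrps6, 14.1% for Mrpl10, 13.1% for Mrpl12, 12.2% for Mrpl46, 11.9% for Mrps7, 11.2% for Mrpl14 and 10.1% for Mrpl18. It was 9.35% for Mrps30, 8.69% for Mrpl48, 7.97% for Mrps11, 7.66% for Mrpl44, 7.61% for Mrpl27 and 5.81% for Mrpl9. Smaller parts were shared by Mrpl49 (4.85%), Mrpl3 (3.72%), Mrpl36 (2.58%), Mrps26 (0.184%) and Mrpl58 (0.0600%). Another protein-coding gene started within 1000 bases upstream, on the opposite strand, for 18 members (23.08%). This held for 10.55% of the 11810 tested protein-coding genes and 6.784% of all 21682. Pairs that overlap at their starts, such as Mrpl46 and Mrps11, were not counted. Examples of counted pairs are Mrps12 with Sars2, the mitochondrial seryl-tRNA synthetase (172 bases apart), Mrpl49 with Fau, which encodes a cytosolic ribosomal protein (59 bases), Mrpl32 with Psma2, a proteasome subunit (75 bases), and Mrpl40 with Hira, a histone chaperone (175 bases).

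Promoter windows of 300 bases, from 250 before to 50 after a RefSeq transcript start (build GRCm38.p6), were available for 69 members, in 75 windows. The 4 windows printed here, 5′ to 3′ on the gene's strand, belong to the 3 members of lowest p among those higher at ST1 than at ST0 in the libraries labelled Bcl6KO (Mrpl10, Mrps26 and Mrps18a), and to Mrps12, which faces Sars2. Capitals mark the motif in each: an NRF1 core for Mrpl10 (chr11:97041332-97041631, plus strand), a reverse-strand ETS motif for Mrps26 (chr2:130563507-130563806, plus strand), a YY1 motif for Mrps18a (chr17:46110754-46111053, plus strand) and a reverse-strand YY1 motif for Mrps12 (chr7:28741772-28742071, minus strand).
Mrpl10: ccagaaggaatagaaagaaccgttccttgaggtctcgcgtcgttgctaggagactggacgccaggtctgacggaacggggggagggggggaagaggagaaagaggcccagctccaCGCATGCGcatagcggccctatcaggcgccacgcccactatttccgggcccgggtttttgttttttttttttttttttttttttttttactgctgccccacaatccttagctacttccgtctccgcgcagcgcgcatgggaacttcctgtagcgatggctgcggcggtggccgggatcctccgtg
Mrps26: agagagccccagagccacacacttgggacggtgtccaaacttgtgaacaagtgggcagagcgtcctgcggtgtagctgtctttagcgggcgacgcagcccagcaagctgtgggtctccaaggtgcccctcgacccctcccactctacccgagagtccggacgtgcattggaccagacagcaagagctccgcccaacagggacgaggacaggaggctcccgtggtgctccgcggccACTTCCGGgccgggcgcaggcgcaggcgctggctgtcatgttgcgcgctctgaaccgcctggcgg
Mrps18a: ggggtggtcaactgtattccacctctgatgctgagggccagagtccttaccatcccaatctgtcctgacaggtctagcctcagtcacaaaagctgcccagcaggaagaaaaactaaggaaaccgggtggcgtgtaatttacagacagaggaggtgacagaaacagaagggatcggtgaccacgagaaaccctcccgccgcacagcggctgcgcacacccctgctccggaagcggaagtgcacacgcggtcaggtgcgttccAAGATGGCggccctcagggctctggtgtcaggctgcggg
Mrps12: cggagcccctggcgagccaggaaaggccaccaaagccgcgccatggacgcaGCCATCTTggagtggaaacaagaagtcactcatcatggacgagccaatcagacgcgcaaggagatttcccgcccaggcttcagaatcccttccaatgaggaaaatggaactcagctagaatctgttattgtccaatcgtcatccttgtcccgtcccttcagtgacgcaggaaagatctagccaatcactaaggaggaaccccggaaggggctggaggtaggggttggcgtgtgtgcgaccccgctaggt
The NRF1 core in the Mrpl10 window began 135 bases before the RefSeq start, and the ETS motif of Mrps26 15 bases before it. The YY1 motif in the Mrps12 window began 199 bases before the start, while that of Mrps18a lay just after the start. Since Sars2 starts 172 bases from Mrps12, the motif in the Mrps12 window lies inside the Sars2 gene.

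Motifs were searched on both strands in all windows, and none of them contains another. The NRF1 core CGCATGCG was in 9.33% of member windows, against 3.70% of the 12659 windows of tested genes and 1.87% of all 32851 windows. NRF1 is a transcription factor known for nuclear genes of mitochondrial function. The ETS motif CCGGAAGT, read by factors such as GABPA, was in 16% of member windows, 8.07% of those of tested genes and 3.89% of all. The YY1 motif AAGATGGC was in 16%, 4.42% and 2.75% in the same order. By window, the other 3 motifs stood close to the tested genes. The E-box CACGTG, read by MYC and related factors, was in 9.33%, 9.76% and 7.15%. Its 7 member windows belonged to 5 genes, because Mrpl2 has several windows that nearly coincide. By gene the E-box was in 5 of 69 members and 1151 of 9972 tested genes. The TATA box TATAAA was in 6.67%, 7.33% and 13.6% of windows. The BCL6 motif TTCCTNGAA was in 1 member window, that of Mrpl30 (1.33%), against 1.25% of windows of tested genes and 1.59% of all. Median GC content was 58.67% in member windows, 60% in those of tested genes and 52.67% in all. These shares are descriptions of letters and show no binding.

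**Figure D1:**
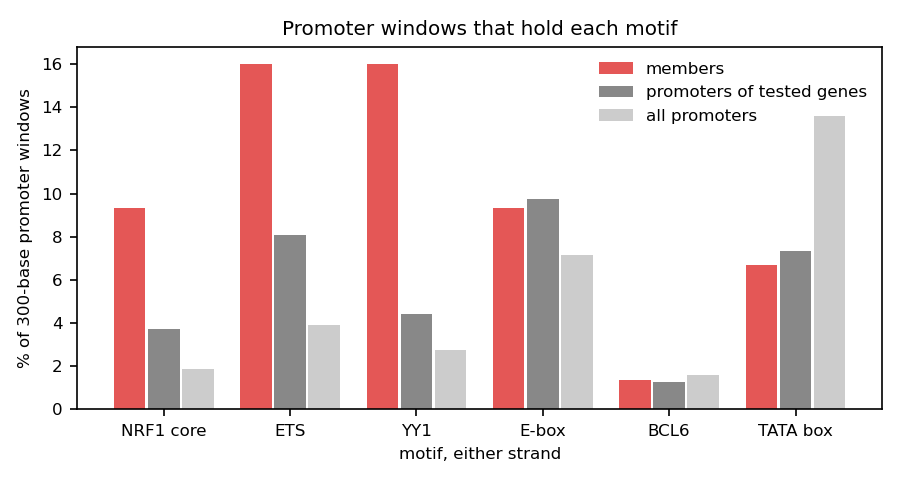
Share of 300-base promoter windows that hold each motif on either strand (y axis, percent), for members (75 windows), tested genes (12659) and all RefSeq windows (32851). The NRF1 core, ETS and YY1 bars of the members are the taller ones of their sets, while the E-box, BCL6 and TATA box bars lie close to those of tested genes.

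Library totals ran from 4129919 to 8038717 counts, and 14860 to 22028 genes had a count. The libraries labelled Bcl6KO ST0 stood apart: Sp100, a nuclear body gene, took 10.8% to 23.9% of their counts, against 0.0283% to 5.03% in the other 9. Bcl6 stood at 371, 215 and 274 CPM (counts scaled to a common library size) in WT ST0 and at 508, 654 and 649 CPM in Bcl6KO ST0. It stood at 8.72, 4.13 and 8.57 CPM in WT ST1 and at 14.6, 55.8 and 25.03 CPM in Bcl6KO ST1. These counts run over all of its exons, and no source used here names the floxed ones, so they do not check the genotype labels. Summed T and iNKT cell markers (10 genes, none at 0 in a whole group) were between 3620 and 6559 CPM. The 7 double-positive thymocyte markers summed to 321 to 1323 CPM at ST0 and 12.4 to 69.8 CPM at ST1, with Rag2 at 0 in WT ST1. B cell markers (5 genes) summed to 16.8 to 161 CPM in Bcl6KO ST0, 3.33 to 56.2 CPM in WT ST0 and at most 7.95 CPM at ST1. Of these, Ms4a1 was at 0 in both ST1 groups. Thymic epithelial markers (5 genes) summed to 25.5 to 80.1 CPM in WT ST0, 42.7 to 55.03 CPM in Bcl6KO ST0, 25.3 to 27.7 CPM in WT ST1 and 31.4 to 36.4 CPM in Bcl6KO ST1, with Krt5 and Krt8 at 0 in all groups. Myeloid and dendritic markers (6 genes) summed to 14.5 to 115.3 CPM in WT ST0, 53.7 to 73.9 CPM in Bcl6KO ST0, 19.3 to 72.2 CPM in WT ST1 and 32.2 to 96.1 CPM in Bcl6KO ST1, with Itgax at 0 in all but Bcl6KO ST0. Erythroid markers (5 genes) summed to 0 to 23.2 CPM, with Hba-a1 and Hba-a2 at 0 in all groups. With Sp100 left out of the fit, the edgeR test called 0 members in each of the 5 comparisons below. Of 15702 genes that fit called 3 between the genotypes at ST0 and 0 at ST1. It called 67 between the stages in WT, 75 in Bcl6KO and 0 in the last comparison. The members' median log2 fold change between the genotypes at ST0 was -0.25 without Sp100, beside -0.26 with it. The part of B cell markers and of detected genes in the results below was not tested.

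The summed level of the 78 members overlapped between genotypes and stages. It was 2074, 1879 and 1669 CPM in WT ST0, 1790, 1968 and 1792 CPM in WT ST1, 2017, 2227 and 1806 CPM in Bcl6KO ST0, and 1644, 1961 and 1823 CPM in Bcl6KO ST1. Every group overlapped every other. Because the samples are sorted populations measured in bulk, fewer cells of a type and less RNA per cell cannot be told apart. As a share of all counts the members made up 0.183%, 0.147% and 0.136% in Bcl6KO ST0 and 0.170% to 0.228% in the other 9 libraries. With Sp100 left out of the totals these shares were 0.205%, 0.193% and 0.165% in Bcl6KO ST0 and 0.179% to 0.228% elsewhere. The order of the groups therefore depended on the scaling: in CPM scaled by TMM, the trimmed mean of M-values, the mean of Bcl6KO ST0, 2017 ± 210 CPM (SD, n = 3), was above that of WT ST0, 1874 ± 203 CPM, and as a share of counts it was below it.

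Without the 25 members that share over 5% of their exonic bases with another gene, the sum was 1202, 1209 and 1139 CPM in Bcl6KO ST0 and 860 to 1122 CPM in the other 9 libraries. In CPM the Bcl6KO ST0 libraries were then the 3 highest, while as a share of counts the same members made up 0.0797% to 0.109% there and 0.0875% to 0.130% elsewhere, so the direction flipped with the scaling. The large subunit genes summed to 1311, 1451 and 1294 CPM in Bcl6KO ST0 and 1013 to 1222 CPM elsewhere, and the small subunit genes to 691, 773 and 507 CPM in Bcl6KO ST0 and 550 to 878 CPM elsewhere. In TMM-scaled CPM the large subunit sum of Bcl6KO ST0 thus lay above the other 9 libraries and the small subunit sum did not. The TMM factors were 0.906, 0.659 and 0.751 in Bcl6KO ST0 and 0.974 to 1.23 elsewhere. Lower factors raise CPM relative to shares of counts, and the subunit sums were not computed as shares. Nuclear genes of oxidative phosphorylation also summed highest there, at 4062, 4156 and 4317 CPM against 3024 to 3984 CPM elsewhere.

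**Figure D2:**
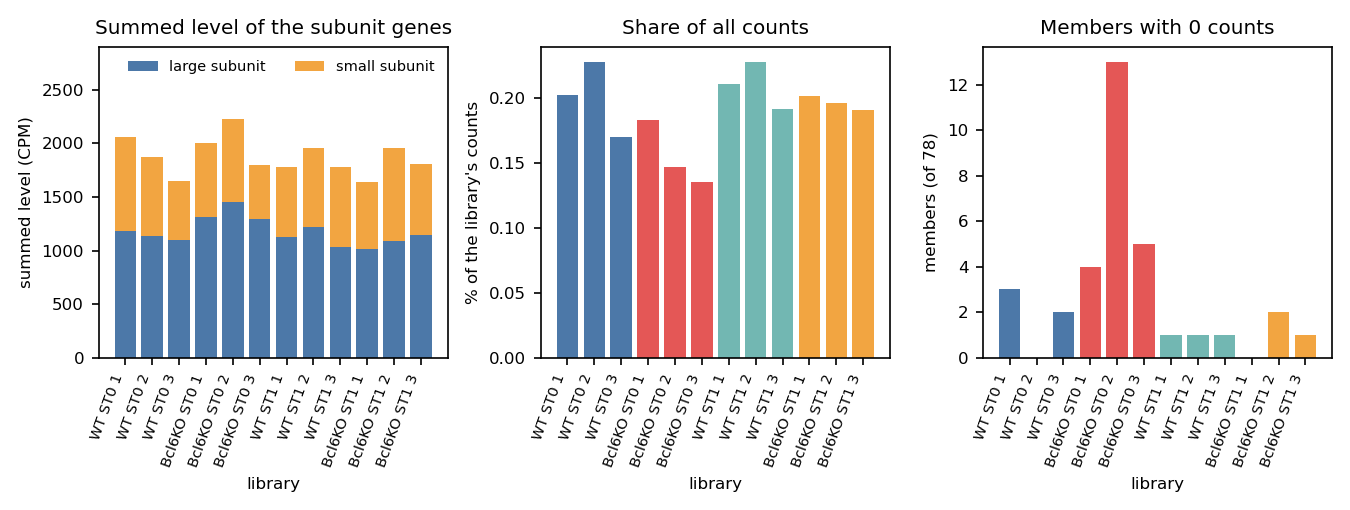
Left, summed CPM of large and small subunit genes in each library (stacked bars); middle, members as a percent of the library's counts; right, number of the 78 members with 0 counts. The stacked bars leave out Mrps36. With it, the sums over all 78 members lie between 1644 and 2227 CPM. The Bcl6KO ST0 libraries have 4, 13 and 5 members at 0 against at most 3 elsewhere.

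Single members varied widely between libraries, most of all in Bcl6KO ST0. The number of members with 0 counts was 4, 13 and 5 in those libraries, 3, 0 and 2 in WT ST0, 1, 1 and 1 in WT ST1 and 0, 2 and 1 in Bcl6KO ST1. Zeros over all tested genes ran the same way, at 10.05%, 20.73% and 15.12% of genes in Bcl6KO ST0 and 1.032% to 9.151% in the others. The median within-group SD of log2(CPM + 0.5) over the 77 tested members was 1.32 in Bcl6KO ST0, 0.87 in WT ST0, 0.74 in Bcl6KO ST1 and 0.44 in WT ST1. Over all 15704 tested genes it was 1.12, 0.81, 0.69 and 0.50 in the same order. The spread was thus wide for genes in general in Bcl6KO ST0, and 45 of 77 members had their largest SD there, against 8453 of 15704 genes. The cytosolic ribosomal protein genes had median SDs of 0.41 in Bcl6KO ST0 and 0.43 in WT ST0, and the nuclear genes of oxidative phosphorylation 1.16 and 0.60.

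**Figure D3:**
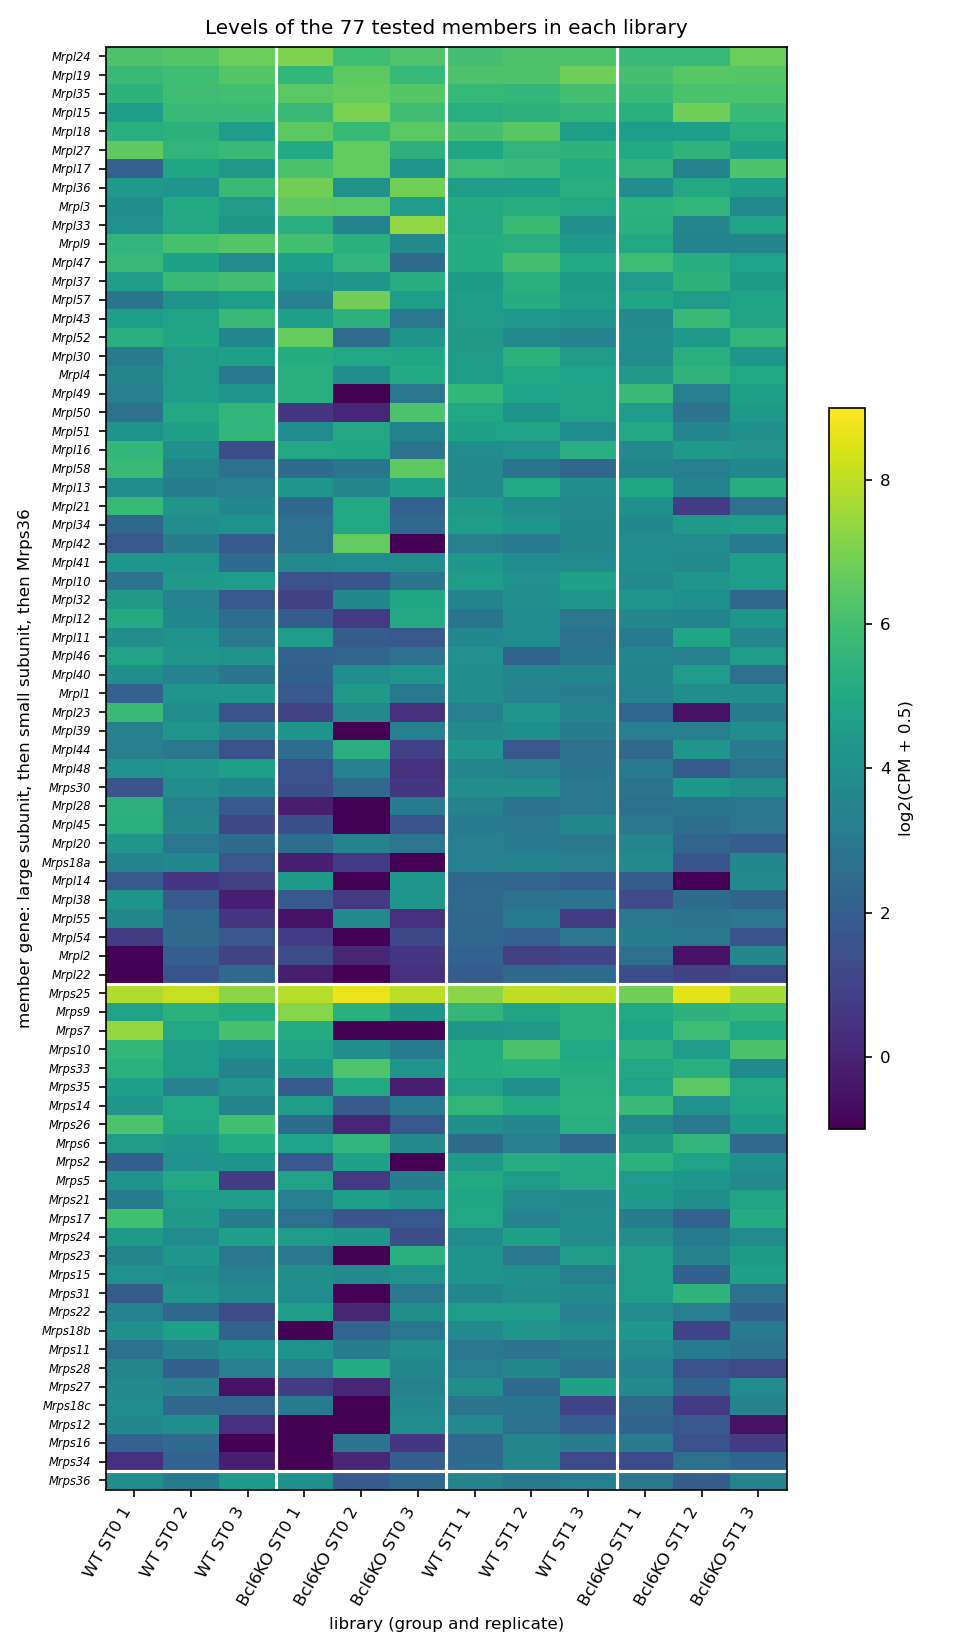
Level of each tested member (rows, large subunit, then small subunit, then Mrps36, ordered by mean) in each library (columns, by group) as log2(CPM + 0.5) on a colour scale. The rows are most even across WT ST1 (median SD 0.44), while the Bcl6KO ST0 columns hold the darkest cells, members at 0 counts, next to bright ones.

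Per length of merged exons, the tested members had a median of 6.60 CPM per kb, against 5.86 CPM per kb over all tested genes, and ran from 1.20 to 49.95. Mrpl27, which encodes a large subunit protein near the peptidyl transferase centre, was the highest at 49.95 CPM per kb, and its level was 94.5, 46.4 and 52.5 CPM in WT ST0, 34.0, 96.8 and 42.3 CPM in Bcl6KO ST0, 30.1, 45.8 and 44.1 CPM in WT ST1 and 32.8, 45.1 and 26.0 CPM in Bcl6KO ST1. Next came Mrps25 at 37.2 CPM per kb, a small subunit gene that overlaps Nr2c2 and alone gave 13.0% of the summed CPM. Mrpl36 followed at 35.9, Mrpl18, which overlaps Tcp1, at 35.3 and Mrpl24, which overlaps Rrnad1, at 35.0 CPM per kb. The lowest tested members were Mrpl48, a protein of the central protuberance, at 1.20 CPM per kb, Mrps30 at 1.44 and Mrps16 at 1.54.

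Mrpl35 was among the steadiest members within groups and was chosen after its values were seen. It was at 43.7, 58.8 and 62.1 CPM in WT ST0, 86.6, 98.9 and 81.7 CPM in Bcl6KO ST0, 51.4, 49.1 and 63.9 CPM in WT ST1 and 53.6, 69.2 and 71.5 CPM in Bcl6KO ST1. Its Bcl6KO ST0 libraries lay above all others. Against WT ST0 the log2 fold change was 0.70 (SE 0.37, edgeR quasi-likelihood F-test, Benjamini-Hochberg adjusted p = 0.397). The widest within-group spread was that of Mrpl14, a protein of the subunit interface, with 21.3, 0 and 19.2 CPM in Bcl6KO ST0, against 0.980 to 3.16 CPM in WT ST0. Mrpl42 followed, with 5.96, 96.2 and 0 CPM in Bcl6KO ST0. Mrpl50 was at 0.993, 0.566 and 71.5 CPM there. In each of these 3 genes 1 or more Bcl6KO ST0 libraries was at or near 0 while another was the highest of all 12. Mrpl53 was the only member with 0 counts in all libraries of a group, WT ST1, where 3 counts, the limit that a count of 0 allows, correspond to 0.589 to 0.612 CPM. It had counts in 3 libraries, did not pass the filter on low counts and was not tested, and 87.97% of its exonic bases are shared with other genes. Floors cover counting error only. The other 77 members were tested, and 58 of the 78 had counts in all 12 libraries.

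The first comparison asked how the members differ between libraries labelled Bcl6KO and WT at ST0. None of the 77 tested members passed the test (edgeR quasi-likelihood F-test, two-sided, Benjamini-Hochberg adjusted p under 0.05), and 0.0191% of all tested genes did. DESeq2 called 6 of 77 members (7.79%), against 5.88% of all genes (924), and limma voom 0 members and 0 genes. Those called by DESeq2 were Mrpl10, Mrpl45, Mrpl46, Mrps17, Mrps18a and Mrps26. By edgeR, at an unadjusted p under 0.05 there were 7 members (9.09%) against 14.7% of all genes: 1 higher in Bcl6KO (background 5.93%) and 6 lower (background 8.77%). The libraries of both groups did not overlap for 8 members (10.4%), against 12.6% of all genes. None of these edgeR and overlap shares was larger than its background, while the DESeq2 share was. The median log2 fold change over members was -0.26, with 31 positive and 46 negative, and over all genes it was -0.01. The gap between those medians rested on single libraries: without Bcl6KO ST0 replicate 1 the members' median was -0.11 and that of all genes -0.21, and without replicate 3 they were -0.10 and -0.16. Without replicate 1 the edgeR test called 1 of 77 members, against 0.789% of all genes (133 of 16849). The member was Mrps7, which stood at 168.7, 30.6 and 67.9 CPM in WT ST0 and at 34.8, 0 and 0 CPM in Bcl6KO ST0.

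The lowest p at ST0 was that of Mrps26, a small subunit protein found only in mitochondria. Its level was 71.0, 28.8 and 62.5 CPM in WT ST0 and 5.36, 0.566 and 2.74 CPM in Bcl6KO ST0. Every Bcl6KO ST0 library lay below every WT one, at a log2 fold change of -4.22 (SE 0.93, edgeR quasi-likelihood F-test, Benjamini-Hochberg adjusted p = 0.106). Without the filter on low counts the edgeR adjusted p was 0.0419, with 0.338% of 30509 genes called, and the DESeq2 adjusted p was 1.71e-05. Mrps18a, one of 3 homologues of bacterial S18 and a large subunit protein despite its name, was at 10.7, 12.3 and 2.74 CPM in WT ST0 and 0.397, 1.13 and 0 CPM in Bcl6KO ST0. The groups did not overlap (log2 fold change -4.01, SE 1.29, edgeR adjusted p = 0.206), and 2 of the Bcl6KO values lie below 3 counts. Mrps17, whose bacterial homologue binds the small subunit RNA, was at 62.9, 20.2 and 9.01 CPM in WT ST0 and 5.76, 2.64 and 2.74 CPM in Bcl6KO ST0. Here too the groups did not overlap (-3.04, SE 1.03, edgeR adjusted p = 0.221).

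The large subunit members lower in Bcl6KO ST0 at an unadjusted p under 0.05 were, besides Mrps18a, Mrpl10, Mrpl46 and Mrpl45. Mrpl10, of the stalk base, was at 6.53, 20.2 and 22.1 CPM in WT ST0 and 2.38, 2.64 and 6.66 CPM in Bcl6KO ST0, an overlap of 1 library (log2 fold change -2.06, SE 0.79, edgeR adjusted p = 0.263). Mrpl46, of the central protuberance, was at 28.3, 18.02 and 16.8 CPM against 3.97, 4.34 and 6.27 CPM, with no overlap (-2.11, SE 0.82, edgeR adjusted p = 0.271). It overlaps Mrps11 head to head (12.2% of its exonic bases), and Mrps11 was at 6.33, 10.6 and 15.7 CPM in WT ST0 and 17.1, 9.06 and 14.3 CPM in Bcl6KO ST0 (0.31, SE 0.78, edgeR adjusted p = 0.901). Mrpl45, which ties the large subunit to the inner membrane, was at 38.8, 11.2 and 1.76 CPM against 2.19, 0 and 2.55 CPM, and its groups overlapped (-3.43, SE 1.35, edgeR adjusted p = 0.275).

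On the positive side at ST0, Mrpl3, a protein near the peptidyl transferase centre, was at 14.4, 33.7 and 21.7 CPM in WT and 91.4, 86.0 and 21.8 CPM in Bcl6KO. Of the Bcl6KO libraries 1 lay among the WT ones (log2 fold change 1.51, SE 0.66, edgeR quasi-likelihood F-test, Benjamini-Hochberg adjusted p = 0.312). Mrpl17 was at 3.96, 29.8 and 20.4 CPM in WT and 69.5, 97.3 and 18.2 CPM in Bcl6KO (1.77, SE 0.84, edgeR adjusted p = 0.349). Mrpl18, of the central protuberance, was at 38.2, 42.9 and 23.3 CPM in WT and 87.6, 53.2 and 86.2 CPM in Bcl6KO. Its groups did not overlap, and it too missed the threshold (1.12, SE 0.53, edgeR adjusted p = 0.349).

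The 32 members of at least 20 CPM on average had a median log2 fold change of 0.024, with 17 positive and 15 negative. The 45 members under 20 CPM had a median of -0.47, with 14 positive and 31 negative. That split used each member's mean over all 12 libraries, including those compared, so it is not independent of these fold changes. By mean CPM, Bcl6KO ST0 was the lowest group for 33 of 77 members (42.9%), against 33.7% of all genes, and the highest for 21 (27.3%), against 33% of all genes. Large subunit genes (50) had a median of -0.16 and small subunit genes (26) of -0.35. Differences between these sets of members were not tested.

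**Figure D4:**
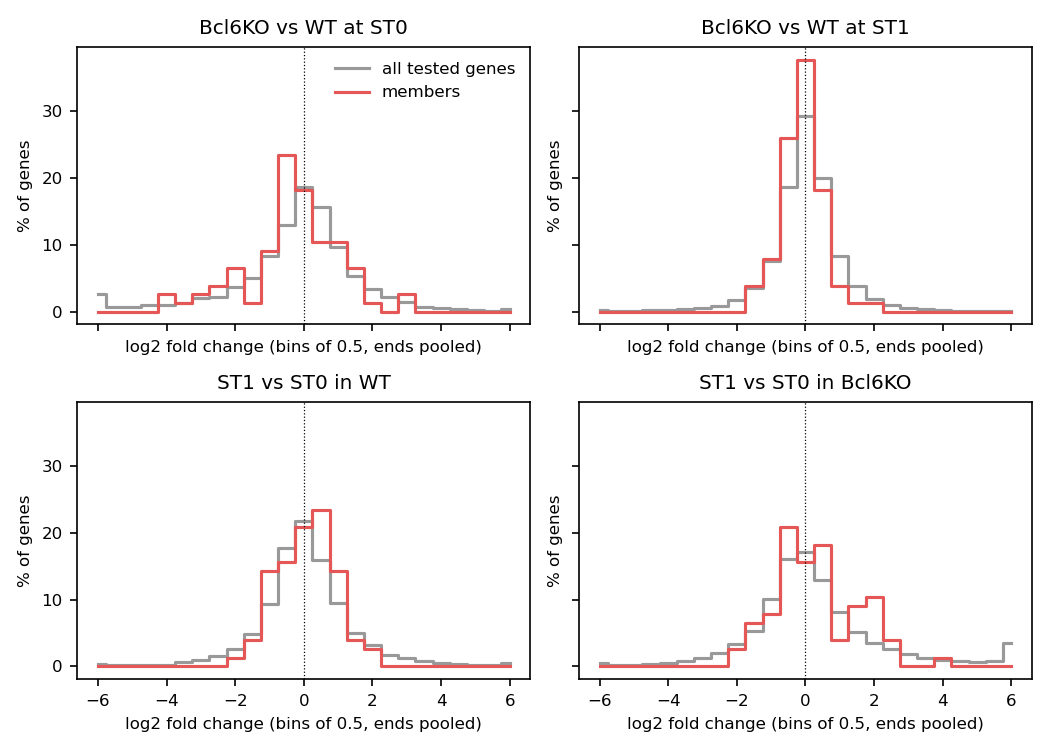
Distribution of log2 fold changes over members (77) and all tested genes (15704) in 4 comparisons, as percent of genes in bins of 0.5, with values beyond either end pooled in the end bins. The member curves lie over those of all genes, with medians of -0.26, -0.14, 0.04 and 0.20 against -0.01, 0.02, 0.00 and 0.01.

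Between the genotypes at ST1, none of the 77 members passed (edgeR quasi-likelihood F-test, Benjamini-Hochberg adjustment), nor did any other gene (0%). DESeq2 called 0 members and 20 of 15704 genes, and limma voom 0 members and 5 genes. At an unadjusted edgeR p under 0.05 there was 1 member (1.3%), against 2.57% of all genes. Groups did not overlap for 4 members, Mrpl22, Mrpl23, Mrpl45 and Mrps5 (5.19%, against 13.3% of all genes). The median over members was -0.14 and that over all genes 0.02, a gap of -0.16 whose size depended on single libraries. Without WT ST1 replicate 2 the medians were -0.0018 and 0.036, and without Bcl6KO ST1 replicate 1 they were -0.033 and -0.0039. The gap kept its sign in 20 of 20 alternatives, which share most of their libraries. The member with the lowest p was Mrps6, a small subunit protein with a bacterial homologue, at 5.35, 9.63 and 4.49 CPM in WT ST1 and 19.96, 45.7 and 5.17 CPM in Bcl6KO ST1. Bcl6KO replicate 3 lay within the WT libraries (log2 fold change 1.86, SE 0.84, edgeR adjusted p = 1). Mrps6 overlaps Slc5a3, a myo-inositol transporter gene.

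The next positive members at ST1 were Mrpl15, at 38.7, 44.0 and 47.8 CPM in WT and 40.7, 110.8 and 54.2 CPM in Bcl6KO, and Mrpl52, at 20.4, 13.0 and 10.6 CPM and 14.8, 20.4 and 47.3 CPM. In both, 1 Bcl6KO library stood above the rest and the groups overlapped. On the negative side stood Mrpl18, at 64.8, 84.1 and 24.9 CPM in WT and 24.1, 24.5 and 38.3 CPM in Bcl6KO (log2 fold change -0.999, SE 0.53, edgeR quasi-likelihood F-test, Benjamini-Hochberg adjusted p = 1). Mrpl9 followed, at 35.7, 39.1 and 21.02 CPM against 32.6, 10.9 and 10.7 CPM (-0.82, SE 0.66, edgeR adjusted p = 1). Mrpl23, a protein at the exit of the nascent peptide tunnel, did not overlap, at 9.72, 19.5 and 10.8 CPM against 4.35, 0.198 and 8.94 CPM (-1.56, SE 1.36, edgeR adjusted p = 1). Its pseudogene Mrpl23-ps1 had 117 counts over all 12 libraries, so reads could have been split between them.

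From ST0 to ST1 in WT, the question was whether members change as iNKT cells leave the CD24+ stage. None of 77 passed the edgeR quasi-likelihood F-test after Benjamini-Hochberg adjustment, against 0.433% of all genes (68). DESeq2 called 0 members and 368 of 15704 genes, and limma voom 0 members and 301 genes. At an unadjusted edgeR p under 0.05 there was 1 member (1.3%), against 8.4% of all genes. Groups did not overlap for 14 members (18.2%), against 21.5% of all genes. The median was 0.04 over members, with 42 positive and 35 negative, and 0.00 over all genes. The members' median was 0.20 without WT ST0 replicate 1 (all genes 0.035), 0.21 without replicate 2 (all genes 0.018) and 0.24 with limma voom (all genes 0.12). Without WT ST0 replicate 3 it was 0.016 and lay below that of all genes, 0.063. Mrps6 was the member with the lowest p, at 22.2, 19.6 and 35.4 CPM in WT ST0 and 5.35, 9.63 and 4.49 CPM in WT ST1. The groups did not overlap, at a log2 fold change of -1.98 (SE 0.84, edgeR adjusted p = 0.522).

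Other members of low p in WT ran in both directions. Mrpl17 was at 3.96, 29.8 and 20.4 CPM at ST0 and 57.7, 54.2 and 36.3 CPM at ST1, with no overlap (log2 fold change 1.45, SE 0.83, edgeR quasi-likelihood F-test, Benjamini-Hochberg adjusted p = 0.707). Mrps22, a small subunit protein found only in mitochondria, was at 9.89, 4.51 and 1.96 CPM and 22.8, 22.6 and 10.2 CPM, again without overlap (1.76, SE 1.13, edgeR adjusted p = 0.756). Mrpl4, which lines the peptide tunnel, was at 11.3, 22.3 and 7.64 CPM and 22.2, 33.0 and 27.4 CPM (1.00, SE 0.65, edgeR adjusted p = 0.768). Lower at ST1 were Mrps26, at 15.5, 11.8 and 38.6 CPM (-1.30, SE 0.82, edgeR adjusted p = 0.756), and Mrpl9, at 47.5, 66.8 and 79.5 CPM at ST0 (-1.02, SE 0.66, edgeR adjusted p = 0.768). Mrps26 overlapped between the stages and Mrpl9 did not.

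From ST0 to ST1 in libraries labelled Bcl6KO, none of 77 members passed the edgeR quasi-likelihood F-test after Benjamini-Hochberg adjustment, against 0.675% of all genes (106). DESeq2 called 3 of 77 members, Mrpl10, Mrps18a and Mrps26, against 8.34% of all genes (1309), and limma voom 0 members and 13 genes. By edgeR, at an unadjusted p under 0.05 there were 6 members (7.79%), against 16.4% of all genes: 4 higher at ST1 (background 9.98%) and 2 lower (background 6.43%). Groups did not overlap for 10 members (13%), against 17.4% of all genes. The median was 0.20 over members, with 42 positive and 35 negative, and 0.01 over all genes; without Bcl6KO ST0 replicate 1 it was 0.10 against 0.23, and edgeR called 1 of 77 members, Mrps7, against 1.64% of all genes (277 of 16849). This comparison uses the same Bcl6KO ST0 libraries as the genotype comparison at ST0, so the differences in both are not independent.

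Mrps18a was at 12.6, 2.57 and 11.9 CPM in Bcl6KO ST1, above its ST0 values of 0.397, 1.13 and 0 CPM (log2 fold change 4.08, SE 1.29, edgeR quasi-likelihood F-test, Benjamini-Hochberg adjusted p = 0.146). Mrpl10 was at 13.2, 18.6 and 23.8 CPM (2.25, SE 0.79, edgeR adjusted p = 0.185) and Mrps26 at 12.6, 7.52 and 21.1 CPM (2.24, SE 0.86, edgeR adjusted p = 0.211). These 3 genes had no overlap between the stages in Bcl6KO, and in WT their stage differences were 0.22, 0.43 and -1.30. Mrps30, with an unadjusted p under 0.05 as well, was at 2.19, 4.91 and 0.980 CPM at ST0 and 6.72, 19.8 and 15.3 CPM at ST1 (2.36, SE 0.99, edgeR adjusted p = 0.2496). The negative members were Mrpl18 (-1.38, SE 0.53, edgeR adjusted p = 0.212), Mrpl36 (-1.79, SE 0.72, edgeR adjusted p = 0.229) and Mrps28 (-1.94, SE 0.98, edgeR adjusted p = 0.346). Mrpl36, whose bacterial homologue is the smallest large subunit protein, was at 114.0, 17.2 and 117.4 CPM at ST0 and 14.4, 33.0 and 24.4 CPM at ST1, and its groups overlapped through ST0 replicate 2. Mrps28 was at 9.14, 34.9 and 11.6 CPM at ST0 and 10.3, 2.37 and 1.79 CPM at ST1, also with an overlap. In the genotype comparison at ST0, log2 fold changes were 1.45 for Mrpl36 (SE 0.71), 1.16 for Mrps28 (SE 0.96) and -1.79 for Mrps30 (SE 0.97).

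**Figure D5:**
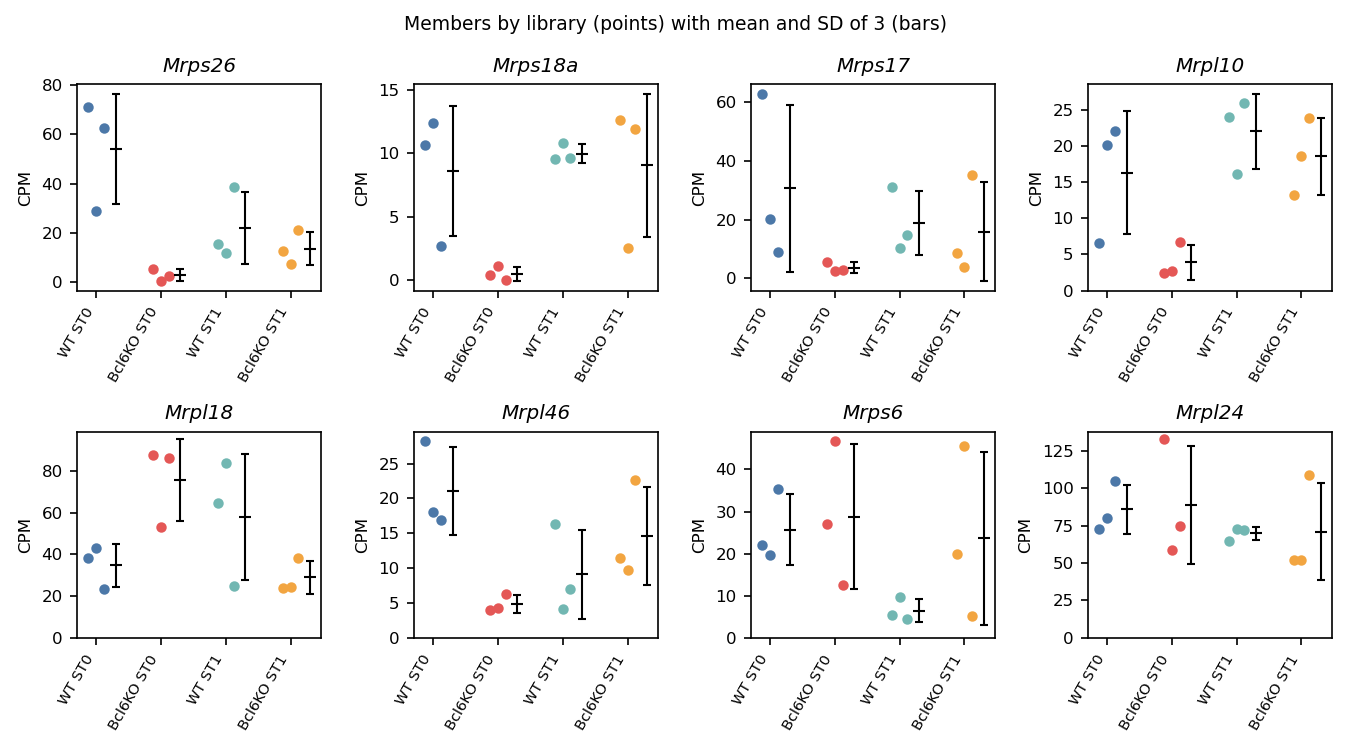
CPM of 8 members in each library (points) with the mean and SD of 3 libraries (bars), by group. In Bcl6KO ST0, Mrps26 lies at 0.566 to 5.36 CPM and Mrps18a at 0 to 1.13 CPM, below every other group's libraries; Mrpl24 ranges from 52.0 to 133 CPM over the 12 libraries.

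Whether the genotype difference itself changed from ST0 to ST1 was tested as an interaction. No member passed the edgeR quasi-likelihood F-test after Benjamini-Hochberg adjustment and neither did any gene (0%). DESeq2 called 0 members and 130 of 15704 genes, and limma voom 0 members and 0 genes. At an unadjusted edgeR p under 0.05 there were 4 members (5.19%), Mrpl18, Mrpl46, Mrps18a and Mrps26, against 7.78% of all genes. For Mrps26 the genotype difference was -4.22 at ST0 and -0.67 at ST1 (difference of log2 fold changes 3.54, SE 1.19, edgeR adjusted p = 0.530). For Mrpl18 it was 1.12 and -0.999 (-2.12, SE 0.75, edgeR adjusted p = 0.538). For Mrpl46 it was -2.11 and 0.68 (2.79, SE 1.14, edgeR adjusted p = 0.587), with 16.3, 4.13 and 6.94 CPM in WT ST1 and 11.5, 9.69 and 22.6 CPM in Bcl6KO ST1. None of these differences between stages is established by the test.

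By role, the proteins of the decoding centre and the stalk were also examined one by one. Mrps12, of the decoding centre, was at 12.3, 14.3 and 0.783 CPM in WT ST0, 0, 0 and 14.1 CPM in Bcl6KO ST0, 13.3, 5.895 and 3.47 CPM in WT ST1 and 4.15, 2.77 and 0.199 CPM in Bcl6KO ST1. Its head-to-head neighbour Sars2 was at 0.198, 16.8 and 2.74 CPM in WT ST0 and 71.1, 0.566 and 62.1 CPM in Bcl6KO ST0, so that in library 1 of each of those groups one gene of the pair was at or near 0 and the other was not. Of the stalk proteins, Mrpl11 was at 13.3 ± 5.03 CPM in WT ST0 and 9.27 ± 10.9 CPM in Bcl6KO ST0 (SD, n = 3 each), and Mrpl12, which also binds the mitochondrial RNA polymerase, at 17.4 ± 15.1 and 12.2 ± 17.2 CPM. Their genotype differences at ST0 were -0.52 and -0.52, within their SEs of 0.96 and 1.10, against -2.06 for Mrpl10.

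Mrpl44, which has a ribonuclease III fold, was at 6.297 ± 3.52 CPM in WT ST0, 15.0 ± 20.1 in Bcl6KO ST0, 9.10 ± 8.26 in WT ST1 and 10.3 ± 6.84 in Bcl6KO ST1. Mrpl58, a peptidyl-tRNA hydrolase that rescues stalled ribosomes and sits in the large subunit, was at 24.1 ± 26.7, 34.2 ± 48.5, 7.95 ± 4.25 and 10.8 ± 1.41 CPM in the same order. Mrps16, a gene of inherited mitochondrial disease, was at 3.02 ± 2.67, 2.47 ± 3.46, 8.31 ± 3.15 and 3.89 ± 3.70 CPM. Mrps27, a pentatricopeptide repeat protein, was at 7.68 ± 6.56, 3.85 ± 5.16, 15.2 ± 10.6 and 10.3 ± 5.34 CPM. For these 4 genes the SD was about as large as the mean in 1 group or more, and none of their differences between groups passed the edgeR test.

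Mitochondria of mammals have 3 homologues of bacterial S18, made by separate genes. In Bcl6KO ST0, Mrps18a was at 0.510 ± 0.574 CPM, Mrps18b, a small subunit protein, at 3.80 ± 3.56 CPM and Mrps18c, the third homologue, also of the small subunit, at 6.90 ± 6.297 CPM (SD, n = 3 each), against 8.59 ± 5.13, 14.7 ± 10.3 and 7.68 ± 5.51 CPM in WT ST0. The log2 fold changes at ST0 were -4.01, -1.95 and -0.16, with SEs of 1.29, 1.31 and 1.39. Differences between these homologues were not tested. Exonic bases shared with other genes made up 30.5% of Mrps18b and 23.2% of Mrps18c and 0% of Mrps18a. Mrps30, now assigned to the large subunit, was at 9.35 ± 6.13 CPM in WT ST0, 2.69 ± 2.01 in Bcl6KO ST0, 12.4 ± 4.37 in WT ST1 and 13.9 ± 6.64 in Bcl6KO ST1. Mrps36, which is a subunit of the oxoglutarate dehydrogenase complex and not of the mitochondrial ribosome, was at 14.8 ± 6.27, 7.999 ± 6.89, 9.26 ± 1.65 and 7.13 ± 3.69 CPM in the same order.

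The members were also grouped by origin. Mrps18a, Mrps18b and Mrps36 were left out of these groups, and Mrps18c was counted among the small subunit genes with a homologue. The 29 large subunit genes with a homologue had a median log2 fold change of 0.00 at ST0 and -0.21 at ST1, and the 20 without one of -0.25 and 0.10. For the small subunit the 16 genes with a homologue had medians of -0.33 and -0.07, and the 9 without one of -0.31 and -0.45. From ST0 to ST1 the large subunit genes with a homologue had medians of 0.38 in WT, with 16 positive, and -0.23 in Bcl6KO, with 12 positive. Those without one had -0.21, with 8 positive, and 0.26, with 13 positive. The small subunit genes with a homologue had 0.017, with 8 positive, and 0.26, with 9 positive. The 9 found only in mitochondria had 0.57, with 8 positive, and 1.41, with 6 positive. Differences between these origin groups were not tested. None of the genes in any of these groups passed the edgeR quasi-likelihood F-test with Benjamini-Hochberg adjustment.

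Other genes of mitochondrial gene expression did not pass the main edgeR test either. Results of DESeq2 and limma voom for them are not given here. No gene of 6 lists passed the edgeR quasi-likelihood F-test with Benjamini-Hochberg adjustment in any of the 5 comparisons. The lists held 5 mitoribosome subunits under other names, 24 assembly factors, 15 translation factors, 20 aminoacyl-tRNA synthesis genes, 13 genes of mitochondrial DNA expression and 9 tested of 10 regulators. At an unadjusted p under 0.05 in the genotype comparison at ST0 there were 1 of 5, 3 of 24, 0 of 15, 0 of 20, 0 of 13 and 1 of 9. Over all tested genes the share was 14.7%. The medians of these lists at ST0 were 0.41, -0.19, -0.11, -0.10, -0.05 and 0.33, beside -0.26 for the members. For ST0 to ST1 in Bcl6KO the medians in the same order were -0.68, -0.35, -0.03, 0.74, -0.36 and -0.55, beside 0.20 for the members.

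The highest gene per length in each list gives a scale. Chchd1, a small subunit protein under another name, had 37.1 CPM per kb, Ybey, an endoribonuclease of ribosome maturation, 29.0, and Mtfmt, which formylates the initiator methionyl-tRNA, 21.2. Hsd17b10, a subunit of mitochondrial RNase P, had 24.9 CPM per kb and Myc, a driver of ribosome biogenesis, 74.8. Lars2, the mitochondrial leucyl-tRNA synthetase, stood far above every member at 413.6 CPM per kb. It was also far from the next gene of its list, Gatc, at 30.2 CPM per kb. Whether all counts given to Lars2 come from its messenger RNA was not tested. The transcripts made inside the organelle were not analysed here.

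The cytosolic ribosomal protein genes gave a contrast in WT. Of 80 tested, 77 had a positive log2 fold change from ST0 to ST1 in WT, with a median of 0.46, and 76 a negative one between Bcl6KO and WT at ST1, with a median of -0.46. The members had medians of 0.04 and -0.14. These comparisons share the WT ST1 libraries, and no cytosolic gene passed the edgeR quasi-likelihood F-test with Benjamini-Hochberg adjustment in either. Nuclear genes of oxidative phosphorylation (76 tested) had medians of 0.18 between the genotypes at ST0 and -0.29 from ST0 to ST1 in Bcl6KO, where the members had -0.26 and 0.20. No difference between these gene groups was tested.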

How the data were processed

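Per the labels' protocols, RNA of sorted cells was purified on QIAGEN columns and sequenced from NuGEN Ovation Ultralow libraries. The deposited files hold raw counts per gene, 1 file per library. The submitters' processing notes name mm10, TopHat2, Bowtie2, bcl2fastq and DESeq; versions, counter, annotation and strand: not given in the sources used here. GENCODE M21 matched 48312 of 48672 IDs.

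Counts were fitted with edgeR 4.0.16 (R 4.3.3): filterByExpr by group (15704 genes), TMM scaling, robust quasi-likelihood F-test over all 12 libraries with 1 mean per group (8 residual degrees of freedom), two-sided, Benjamini-Hochberg threshold 0.05 over all tested genes. The common biological coefficient of variation was 0.835. The procedure was tested on simulated data. Standard errors are log2 fold changes over the root of F. CPM use the TMM-scaled library size, and 0.5 CPM was added before log2 for spreads. Chi-square per gene between libraries of a group was 27.6 to 170, so all were kept. The labels do not say whether replicates came from separate pools of mice, so p-values reflect only spread among these libraries, which may be partly technical.

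Alternatives were other scalings, no low-count filter, DESeq2 1.42.0, limma 3.58.1 (voom with quality weights), only the groups compared, a replicate block, Sp100 left out and each library left out.

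Named members followed a rule: in each comparison of groups the 3 positive and 3 negative members with the lowest p, the 3 with the lowest p for the interaction, the 5 highest and 3 lowest per length, the 3 of widest spread, members at 0 in a group and 16 chosen by role. Other members are named as parts of counts, and Mrps11, Mrps7 and Mrpl35 were named after their values were seen. The members and lists were chosen with earlier results of these data known. Protein sequences and chromatin accessibility were not analysed here.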

Additional observations from a re-analysis of the deposited data

How the results depend on the processing

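In the genotype comparison at ST0, 17 of 20 alternatives called 0 members; 1 was called with no filter on low counts (Mrps26; 103 of 30509 genes), 6 by DESeq2 (924 of 15704 genes), and 0 to 1 when single libraries were left out (Mrps7 without Bcl6KO ST0 replicate 1, where 133 of 16849 genes were). The median log2 fold change over members was 0.024 for members of at least 20 CPM, a split that itself uses the libraries compared. On library totals without further scaling it was -0.77 (all genes -0.46, a shift that leaves -0.30 for members against all genes) and with limma voom -0.70 (all genes -0.26). In 18 of 20 alternatives it lay below that of all genes. From ST0 to ST1 in Bcl6KO, 3 members were called by DESeq2 (1309 of 15704 genes) and 0 to 1 when single libraries were left out (Mrps7 without Bcl6KO ST0 replicate 1, where 277 of 16849 genes were). The median there was -0.35 for members of at least 20 CPM, with the same limit of the split. It was 0.67 on library totals (all genes 0.50) and 0.55 with limma voom (all genes 0.30). For the difference between the genotype effects the median was 0.52 on library totals (all genes 0.46), 0.48 with limma voom (all genes 0.19) and -0.019 to 0.27 when single libraries were left out. Genotype at ST1 and stage in WT called 0 members under all 20 alternatives, where 0 to 20 and 20 to 368 of all genes were called. With the replicate block, the edgeR test called 0 members in each of the 5 comparisons, and the median for the genotype at ST0 was -0.43. Of 15704 genes that fit called 1 between the genotypes at ST0 and 0 at ST1. It called 53 between the stages in WT, 39 in Bcl6KO and 0 for the difference between the genotype effects. Replicate numbers were not taken to pair libraries: deviations from group means correlated at -0.08 to 0.12 over 18 same-numbered pairs, and 5 of 12 libraries matched best with one of their own number. The cause of these shifts was not tested. The alternatives for the summed level were chosen after seeing the data. Members with few counts, 14 to 23 of 78 under 10 counts in Bcl6KO ST0, limit what can be said of single genes.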
